A study of Bos taurus with 30 samples.

Results

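The mitochondrially encoded respiratory chain genes ND1, ND4, ND5, CYTB, COX1, COX2 and COX3 were compared in visceral adipose tissue between heifer calves fed a high (HI) or a moderate (MOD) plane of nutrition. These 7 genes were taken by their Ensembl identifiers from the 24596 genes listed, under the condition that the mean over the 30 libraries exceeded a value of 100, and all 7 met it. Expression of every one of them was higher in HI calves, by 2.14-fold for ND1 to 2.77-fold for COX1 in means of log2 values. As a ratio of group means the difference was 1.99-fold for ND5 to 2.52-fold for ND4. Together the 7 genes took 11.2% ± 2.80 (SD, n = 15) of the reads counted on genes in HI calves and 5.45% ± 2.71 (SD, n = 15) in MOD calves.

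All 30 animals were Angus × Holstein-Friesian heifers, and omental fat was collected from each at 21 weeks of age. In the calf phase of 8 weeks, HI calves were offered up to 10 litres (1.5 kg) of milk replacer per day with concentrate ad libitum. MOD calves were offered up to 4 litres (0.5 kg) with up to 1 kg of concentrate. Milk replacer was gradually withdrawn in both groups, from an earlier day in HI calves. In the post-weaning phase of 11 weeks the HI group had concentrate ad libitum and the MOD group 1 kg per day, and both had hay to appetite. Target gains were 1.2 and 0.5 kg per day. One library of poly(A) RNA was sequenced per calf, so the calf was the replicate, and calves are named here by the numbers in their labels. The deposited file does not pair identifiers with gene names, so the tissue could not be checked against its marker genes, and in bulk tissue a change in the cells present cannot be told apart from a change in RNA per cell.

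Mitochondrial DNA is a small circle that mammals keep in many copies per cell. It is transcribed from both strands as long precursors, which are cut mainly at the transfer RNAs that lie between the genes, and most of the resulting mRNAs are polyadenylated and are therefore captured in poly(A) libraries. All the proteins it codes for are core subunits of the oxidative phosphorylation complexes, in which they are joined by many more subunits coded in the nucleus, whereas complex II is wholly of nuclear origin. White adipocytes draw on mitochondria for ATP. The RefSeq annotation of ARS-UCD2.0 lists 13 protein genes on bovine mitochondrial DNA, of which 7 are described here, in the order ND1, COX1, COX2, COX3, ND4, ND5 and CYTB. The other 6 (ND2, ATP8, ATP6, ND3, ND4L and ND6) lie between them and were not analysed here.

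Reads counted on genes ranged from 13269303 to 19383275 per HI calf and from 11847883 to 19364429 per MOD calf. By mean value, which is not per length, these genes ranked from 1 (COX1) to 37 (ND5) among all genes. The smallest number of reads behind any of their values was 3523, for ND5 in MOD calf 975, so counting error was small beside the spread between calves. Over all genes tested, HI calf 2120 and MOD calf 975 stood apart, with a median r with the other libraries of their diet of 0.79 and 0.88, against 0.93 to 0.97 in 27 other libraries. MOD calf 911, at 0.929, was at the lower end of that range, and results are also given without these 3 calves. MOD calf 1057, at 0.928, was slightly lower and was kept, so this measure does not set calf 911 apart. Values below are TMM-normalized CPM, in which the reads of a gene are counted per 1000000 reads of the TMM-scaled library total. Gene lengths of the build used were not at hand, so these ranks and the division of reads between genes are of reads, not of transcript levels.

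ND1, ND4 and ND5 code for subunits of complex I, the NADH dehydrogenase through which electrons from NADH enter the chain. ND1 (ENSBTAG00000043558) lay between 5386 in calf 2570 and 15316 in calf 2535 among HI calves, with a median of 7997. In MOD calves it lay between 1276 in calf 975 and 8784 in calf 991, with a median of 4407. No HI calf fell below the MOD median and 7 exceeded the whole MOD group, so the diets overlapped in part. The mean was 9148 ± 2563 in HI and 4580.2 ± 2064 in MOD calves (SD, n = 15 each). The log2 fold change was 1.10 ± 0.21 (SE, with adjusted p = 0.000681 by limma), the smallest of the 7 in this fit.

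ND4 (ENSBTAG00000043568) ranged from 3023 in calf 2570 to 15285 in calf 2120 in the HI group around a median of 6202. In the MOD group it ranged from 969.8 in calf 975 to 6672 in calf 1082 around a median of 2267. HI calf 2120 was far above the rest of its group, of which the highest was calf 1360 at 9432, and 5 HI calves exceeded every MOD calf. The group means were 6831 ± 3082 and 2714 ± 1618 (SD, n = 15 each), and the log2 fold change was 1.43 ± 0.25 (SE, with adjusted p = 0.000309 by limma).

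ND5 (ENSBTAG00000043563), which follows ND4 on the circle, had the fewest reads of the 7 by mean value. It ran from 1783 in calf 2120 to 5658 in calf 1531 in HI calves (median 3008), and from 222 in calf 975 to 3912 in calf 991 in MOD calves (median 1436.5). HI calf 2120, highest in its group for ND4, was thus lowest for the neighbouring gene. The means were 3378 ± 1180.25 in HI and 1694 ± 964 in MOD calves (SD, n = 15 each), and the log2 fold change was 1.17 ± 0.28 (SE, with adjusted p = 0.0047 by limma).

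CYTB codes for cytochrome b, the only subunit of complex III that is coded in mitochondrial DNA. CYTB (ENSBTAG00000043550) was lowest at 6697 in calf 2570 and highest at 24001.5 in calf 1360 among HI calves, with a median of 12674.5. Among MOD calves it was lowest at 931 in calf 975 and highest at 15638 in calf 991, with a median of 6559. There were 7 HI calves above every MOD calf, and 3 MOD calves above the HI median. The means were 15539 ± 5697 and 7198 ± 4220.1 (SD, n = 15 each), and the log2 fold change was 1.30 ± 0.30 (SE, with adjusted p = 0.0036 by limma).

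COX1, COX2 and COX3 form the core of complex IV, cytochrome c oxidase, which passes electrons to oxygen. COX1 (ENSBTAG00000043561) took more reads than any other gene in the table by mean value. Its values were 34072 (calf 2570), 54883 and 103709 (calf 1360) for the lowest, median and highest HI calf, against 7829 (calf 2537), 21462 and 63376 (calf 991) in MOD calves. No HI calf fell below the MOD median and 6 lay above the whole MOD group. The means were 62940.4 ± 20078 and 25978 ± 16468 (SD, n = 15 each). Its log2 fold change of 1.47 ± 0.27 (SE, with adjusted p = 0.000473 by limma) was the largest of the 7 in this fit.

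COX2 (ENSBTAG00000043556) codes for the subunit that receives electrons from cytochrome c. In HI calves it spanned 3843 in calf 2570 to 19422 in calf 2120 (median 7888), and in MOD calves 1099.9 in calf 975 to 8653 in calf 1082 (median 3366). Calf 2120 was again far above its group, as for ND4. Its TMM factor of 0.67 was the lowest of the 30 and raises all its values, but by share of reads it was highest for both genes too, at 1.02% for ND4 and 1.30% for COX2. In all, 6 HI calves exceeded all MOD calves. The log2 fold change was 1.21 ± 0.28 (SE, with adjusted p = 0.00402 by limma), with means of 8176 ± 4137 and 3736 ± 2193 (SD, n = 15 each).

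COX3 (ENSBTAG00000043560) spanned 7044 in calf 2570 to 24354 in calf 2120 in HI calves (median 14489.8) and 1553 in calf 975 to 15110.2 in calf 991 in MOD calves (median 6312). By share of reads calf 2120 was not the highest for this gene, at 1.63% against 1.99% in HI calf 2535. The groups overlapped as for the other genes, with 7 HI calves above every MOD calf. The means were 15346 ± 5399 and 6929 ± 3738 (SD, n = 15 each), and the log2 fold change was 1.26 ± 0.26 (SE, with adjusted p = 0.00129 by limma).

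**Figure D1:**
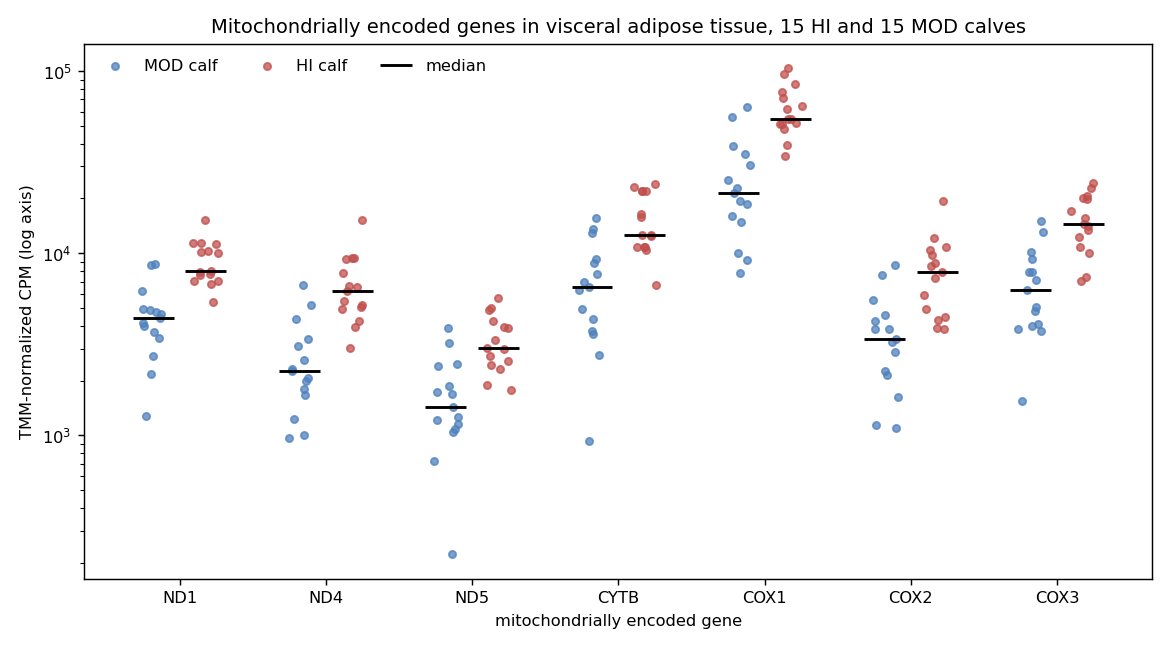
TMM-normalized CPM of each mitochondrially encoded gene (log axis) in 15 MOD calves (blue) and 15 HI calves (red); each point is a calf and each black line a group median. For every gene the whole HI group lies above the MOD median, while the highest MOD calves reach into the HI range.

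All 7 genes passed the test for higher expression in HI calves, where 4.36% of the 12738 genes tested did so (limma on log2(value + 0.5), adjusted p under 0.05 and fold change above 1.5). The median log2 fold change of the 7 was 1.26, against -0.02 over all genes tested. Abundant genes were called higher more often than others. Of the 50 genes with the highest mean value 44% were higher in HI calves, and without the 7 mitochondrially encoded genes the count was 15 of 43. Because identifiers could not be paired with names, these 43 were not cleared of other mitochondrially encoded genes and may include some. Among the 43 were ENSBTAG00000043577 and ENSBTAG00000043584, with mean values of 6445 and 8483. Both were called higher in HI calves, and whether they lie on mitochondrial DNA was not checked. In each of the 7 genes the lowest of the 15 HI calves exceeded the median MOD calf, a pattern seen in 3.75% of all genes tested. Among the 12738 genes, 166 had a log2 fold change at least as high as that of ND1, the lowest of the 7, and these 166 include the 7. The 95% intervals of the fold change ran from 1.59 to 2.88 for ND1, from 1.88 to 3.86 for ND4, from 1.52 to 3.32 for ND5 and from 1.62 to 3.75 for CYTB. For COX1, COX2 and COX3 they ran from 1.88 to 4.06, from 1.56 to 3.45 and from 1.67 to 3.45. The intervals of all 7 genes overlapped, and whether the folds differ between genes was not tested.

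**Figure D2:**
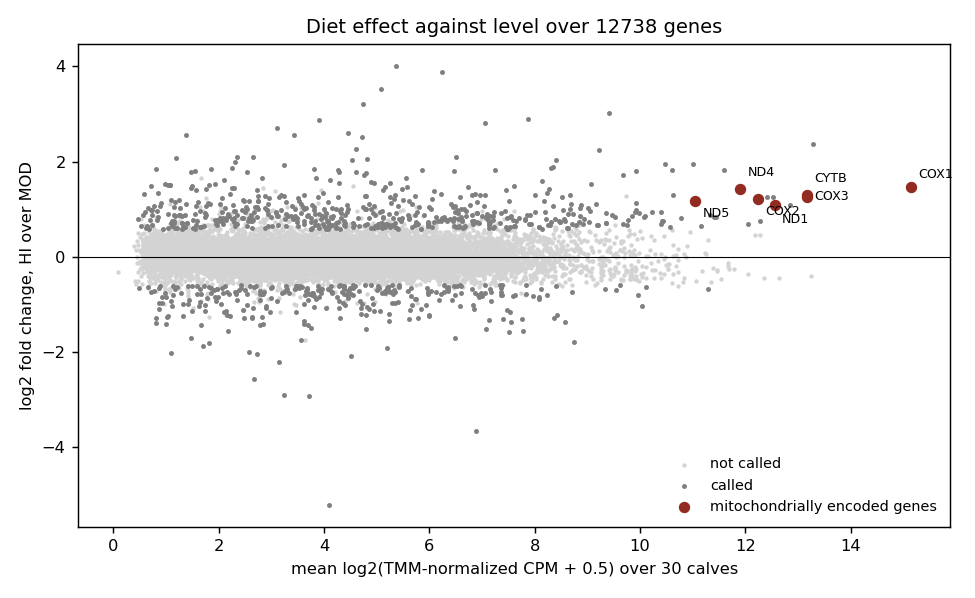
Log2 fold change of HI over MOD calves against the mean log2(TMM-normalized CPM + 0.5) for the 12738 genes tested, with called genes in dark grey and the 7 mitochondrially encoded genes in red. The 7 lie at the upper end of abundance with log2 fold changes between 1.10 and 1.47.

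Without calves 2120, 975 and 911 all 7 genes were still called, with log2 fold changes between 0.99 and 1.40 and adjusted p-values up to 0.0067 (limma). Because these genes hold many reads, the scaling was also computed without them. The TMM factor averaged 0.94 ± 0.10 in HI and 1.07 ± 0.10 in MOD calves (SD, n = 15 each), and when computed without the 7 genes it averaged 0.97 ± 0.11 and 1.04 ± 0.07. The second factor multiplies a library total that leaves out the 7 genes, so these averages cannot be compared directly. With this second scaling the log2 fold changes were between 1.10 and 1.47, the same range as with TMM over all genes. TMM trims the most abundant genes before it computes a factor, so leaving out these 7 could hardly change the result. With library size alone they were between 0.90 and 1.28, and the median of all genes then moved to -0.19. The median of the 7 genes stood 1.27 above that of all genes, against 1.28 with TMM. A scaling factor shifts all genes of a library alike on the log2 scale. This gap could therefore change only through the pseudocount and the filter, and it is no check on the scaling.

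**Figure D3:**
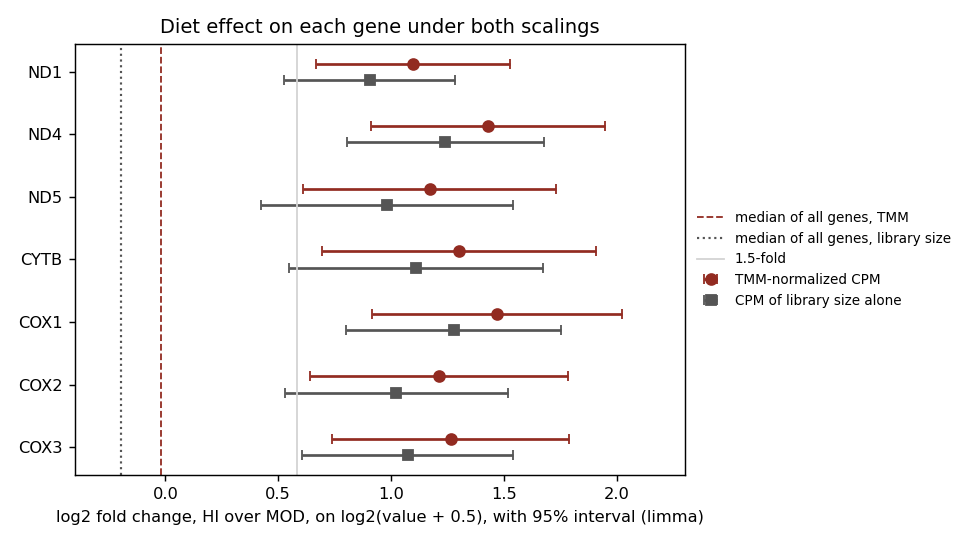
Log2 fold change of each gene, HI over MOD (n = 15 each), with its 95% interval, for TMM-normalized CPM (circles) and for CPM of library size alone (squares); dashed and dotted lines mark the median of all genes under each scaling. Every interval lies above the median of all genes under its own scaling.

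The share of reads was also summed over the 7 genes, which needs no scaling factor. Among HI calves the summed share was lowest in calf 2570 at 6.90% (95% Wilson interval 6.89 to 6.92, counting error only), had a median of 9.88% and was highest in calf 1360 at 15.63% (15.61 to 15.65). Among MOD calves it was lowest in calf 975 at 1.55% (1.54 to 1.56), had a median of 5.09% and was highest in calf 991 at 11.06% (11.04 to 11.07). The lowest HI calf exceeded the median MOD calf, 6 HI calves lay above the whole MOD group, and 12 of the 15 MOD calves lay below the whole HI group. Gene by gene, 2 values of HI calves fell below the MOD median on this scale, the ND5 share of calf 2120 (0.12% against 0.15%) and the COX3 share of calf 1089 (0.64% against 0.71%). The difference between the diet means of the summed share was 5.74 percentage points, and it was 5.59 points without calves 2120, 975 and 911. Since COX1 alone took 5.82% ± 1.58 of reads in HI and 2.67% ± 1.48 in MOD calves (SD, n = 15 each), the share was also taken without it. The other 6 genes took 5.37% ± 1.34 and 2.78% ± 1.26 (SD, n = 15 each). Against reads on all other genes, the 7 genes took 7.42 to 18.5 reads per 100 in HI calves (mean 12.7) and 1.57 to 12.4 in MOD calves (mean 5.85).

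Neither diet was uniform. In HI calves 9 libraries lay between 6.90% and 9.88%, and the other 6 lay between 12.5% and 15.6%, with none in the gap. MOD calves 1082 and 991, at 10.5% and 11.1%, stood above the other 13 MOD calves, whose highest was calf 2346 at 7.86%. The same calves set the extremes gene by gene. Calf 975 was the lowest MOD calf for 6 of the 7 genes, calf 991 was the highest for 5 and calf 1082 for the remaining 2. Calf 2570 was the lowest HI calf for 6 of the 7. MOD calves 991 and 1082 fell within the HI range for all 7 genes, and each was above the HI median for 5 of them.

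**Figure D4:**
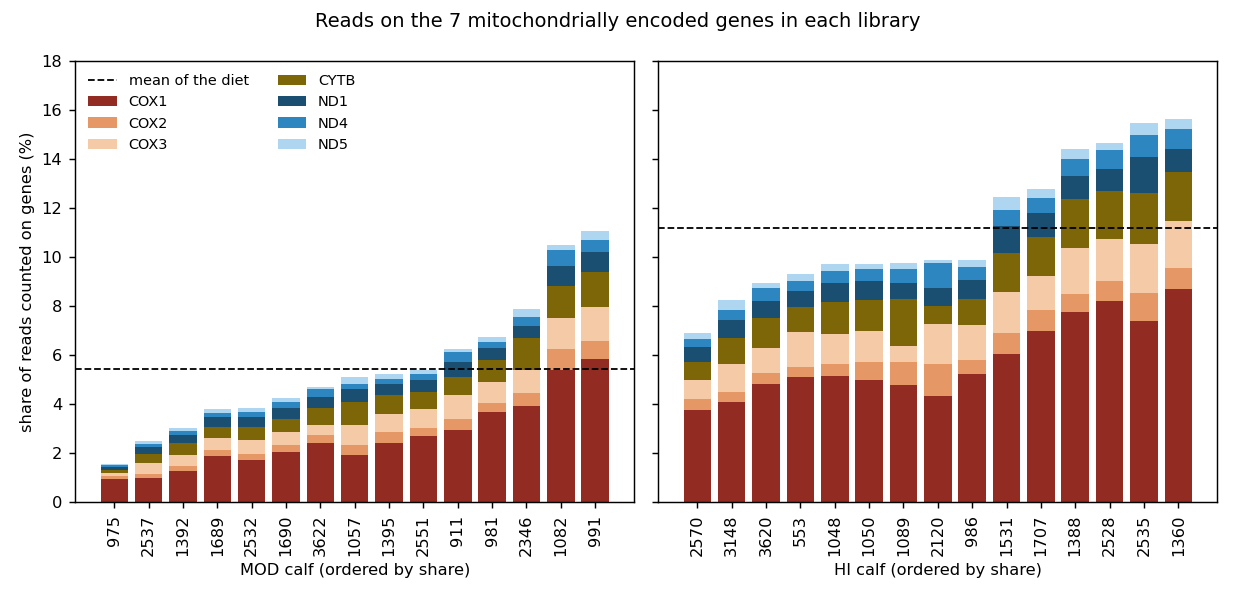
Share of reads counted on genes that fell on each of the 7 genes (stacked bars, percent), for 15 MOD calves (left) and 15 HI calves (right), each ordered by the summed share; the dashed line is the mean of the diet. The bars end between 1.55% and 11.06% in MOD and between 6.90% and 15.63% in HI calves.

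On the log2 scale, spread between calves was larger on the MOD diet for these genes, though this difference in spread was not tested. For the TMM-normalized CPM itself the direction was the reverse, with the larger SD in HI calves for all 7 genes. The SD of the summed share was 2.80 in HI and 2.71 in MOD calves. For all 7 genes the SD of log2(value + 0.5) was larger in MOD than in HI calves, with a median of 0.89 against 0.55. Over all genes tested 40.3% had the larger SD in MOD calves. The log2 ratio of the SD in HI to that in MOD calves had a median of -0.85 over the 7 genes and 0.13 over all genes. This contrast depended in part on calves 2120, 975 and 911, without which the medians were -0.50 and -0.19, so that over all genes the direction turned. The highest MOD calf exceeded the lowest by 17.6-fold for ND5 and by 16.8-fold for CYTB, and by 6.88-fold to 9.73-fold for the other 5 genes. In HI calves the same ratio was 2.84 for ND1 and at most 5.06, for ND4.

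How reads were divided among the 7 genes was then described, as the percent of their summed reads. COX1 took 51.9% ± 3.54 in HI and 48.3% ± 5.80 in MOD calves (SD, n = 15 each). This difference of 3.58 points was smaller than the SD in MOD calves and about equal to that in HI calves. ND1 took 7.67% ± 1.03 and 9.26% ± 1.59 (SD, n = 15 each). All 15 HI calves were below the MOD median of 9.65% for ND1, and the diets overlapped, since 6 MOD calves lay in the HI range. This division was noticed in these values and was not tested. Means for the other genes lay closer together than their spread, at 5.54% and 5.23% for ND4, 2.90% and 3.36% for ND5, 12.8% and 13.3% for CYTB, 6.60% and 7.03% for COX2, and 12.6% and 13.5% for COX3 in HI and MOD calves. Without calves 2120, 975 and 911 the difference of HI minus MOD in percentage points changed from -0.43 to -0.88 for COX2, from 0.30 to 0.17 for ND4 and from 3.58 to 4.99 for COX1, and it was -1.62 for ND1 against -1.59 with all calves.

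Several calves departed widely from the median division. In HI calf 2120, ND4 took 10.4% and COX2 13.2% of the summed reads, the highest of the 30 calves, while ND5 took 1.21%, the lowest. CYTB was also low in this calf, at 7.38%. In MOD calf 975, COX1 took 60.2%, the highest, and CYTB 6.12%, the lowest of the 30 calves. HI calf 1089 had the highest share on CYTB (19.7%) and the lowest on COX3 (6.59%), although its summed share of 9.76% was near the HI median. MOD calf 1057 had the lowest share on COX1 (37.9%), and MOD calf 2537 the highest on COX3 (19.0%). In 11 of the 30 calves at least 1 gene departed by more than 1.5-fold from the median of the 30, and ND5 was the farthest gene in 8 of these 11.

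**Figure D5:**
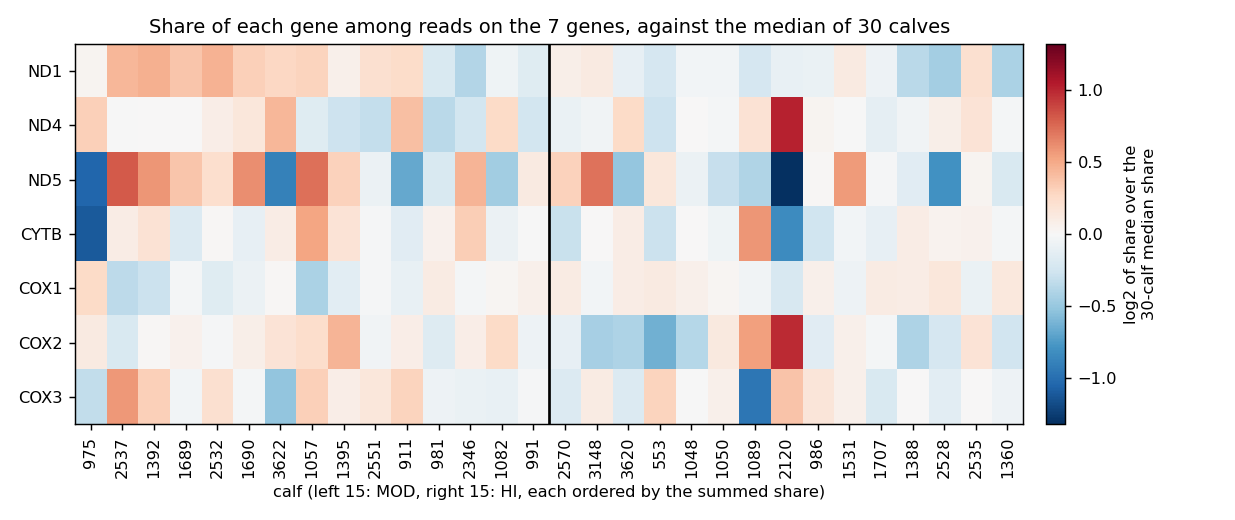
Log2 of the share of each gene among the reads on the 7 genes, relative to the median share over the 30 calves, with MOD calves on the left of the black line and HI calves on the right. The deepest colours are in HI calf 2120 (ND4 and COX2 high, ND5 low), in MOD calf 975 (ND5 and CYTB low) and in HI calf 1089 (COX3 low).

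Ratios of reads between pairs of these genes do not depend on scaling. ND5 and ND4 are neighbours, and the number of ND5 reads per ND4 read ran from 0.12 in HI calf 2120 to 1.09 in MOD calf 1057, a 9.30-fold span. It averaged 0.56 ± 0.23 in HI and 0.68 ± 0.28 in MOD calves (SD, n = 15 each), a difference within the spread between calves. CYTB reads per COX3 read ran from 0.45 in HI calf 2120 to 2.98 in HI calf 1089, with means of 1.10 ± 0.56 and 1.01 ± 0.25 (SD, n = 15 each). ND1 reads per COX1 read spanned 2.60-fold, with means of 0.15 ± 0.03 in HI and 0.20 ± 0.05 in MOD calves (SD, n = 15 each). In 14 of the 15 HI calves this ratio was below the MOD median of 0.19. Without calves 2120, 975 and 911 the ND5 to ND4 means were 0.59 and 0.75, and the ND1 to COX1 means 0.15 and 0.20.

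Levels of the 7 genes varied together between calves of the same diet. After each diet mean was subtracted, the log2 value of each gene was set against the log2 sum of the other 6 over the 30 calves. Pearson's r was 0.94 for ND1, 0.92 for COX1, 0.91 for ND4, 0.90 for CYTB and COX2 and 0.89 for COX3, and was lowest for ND5 at 0.71. For ND5 it was 0.42 within HI calves and 0.79 within MOD calves. These values share libraries and scaling, and are given as a description. Over the other 12731 genes tested, r with the sum of all 7 had a median of -0.01 and a 5th to 95th percentile of -0.46 to 0.55, and 180 of them had an r at or above the 0.71 of ND5.

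The genes most like the 7 in this measure carry no name in the deposited file. ENSBTAG00000043577 had an r of 0.95 over the 30 calves (0.97 without calves 2120, 975 and 911) and ENSBTAG00000043584 an r of 0.92 (0.91 without them). Both were higher in HI calves, with log2 fold changes of 1.27 ± 0.24 (SE, with adjusted p = 0.000503 by limma) and 1.10 ± 0.22 (SE, with adjusted p = 0.0013 by limma). Of the 5 genes most alike, whose r was 0.88 to 0.95, 4 were called higher in HI calves. The other, with a mean value of 25.7 and a log2 fold change of 0.53, was not called. The gene most opposite to the 7, named here after its values were seen, was ENSBTAG00000008612, with an r of -0.79. It was lower in HI calves, at 236 ± 77.3 against 606 ± 353 (SD, n = 15 each), with a log2 fold change of -1.21 ± 0.23 (SE, with adjusted p = 0.000677 by limma).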

How the data were processed

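Per the labels, RNA from 15 HI and 15 MOD calves was made into stranded poly(A) libraries, 1 per calf. Reads were trimmed with Cutadapt by the authors, then aligned to UMD3.1 and counted per gene with STAR; the strand setting is not given in the sources used here. The deposited table holds a signal per gene and library, the read count over the TMM-scaled library total (edgeR), given per 1000000. Dividing by the worth of 1 read gave 100% whole values within 0.01 of a read in every library.

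Because the values are normalized, limma 3.58.1 (R 4.3.3) with a variance trend was fitted to log2(value + 0.5) over the 12738 genes whose value exceeded 1 in 15 libraries or more. Genes were called at an adjusted p-value (Benjamini-Hochberg) under 0.05 with a fold change above 1.5, the thresholds of the paper. Fits were tested on simulated counts. The edgeR 4.0.16 exact and quasi-likelihood tests and DESeq2 1.42.0 on the recovered reads were alternatives, with other scalings, pseudocounts and filters, and with calves left out. Shares were described without a test.

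The genes and lists were chosen with earlier results of these data known. The 7 genes were named from their identifiers as given with the selection rule; no table used here pairs other identifiers with names, so the planned lists of nuclear subunits, regulators and cell type markers were not analysed here. The rule for other named genes took the 5 whose values followed the summed value of the 7 most closely; 2 are printed, without a check that they lie outside mitochondrial DNA. No sequence of these genes was at hand. Reads shared with nuclear copies of mitochondrial DNA, or between overlapping genes such as ND4 and ND4L, could not be separated. The labels do not tie calves to the blocks (age, bodyweight and sire) within which diets were assigned.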

Additional observations from a re-analysis of the deposited data

How the results depend on the processing

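All 7 genes were called higher in HI calves under every one of the 41 alternatives, of which 30 each left out 1 calf. Those 30 fits share most of their calves, so they are not separate checks. Over those 30 fits the log2 fold changes of the 7 genes lay between 0.97 and 1.58, with adjusted p-values up to 0.00934 (limma). Over the other settings they lay between 0.90 (ND1, library size alone) and 1.48 (COX1, DESeq2 size factors). The highest adjusted p-value was 0.0296, for COX1 with no filter on low values (limma). Dropping the fold change threshold reused the main fit under a looser rule, so it could not change the calls of the 7 genes. Pseudocounts of 0.1 and 1 left the log2 fold changes between 1.10 and 1.47, as in the main fit. With a smallest value of 222 among these genes, they could hardly do otherwise. The edgeR exact test gave log2 fold changes of 1.00 to 1.33, the quasi-likelihood test 1.00 to 1.33 and DESeq2 1.00 to 1.35. In each of these count tests ND5 was the lowest and ND4 the highest, so the genes at both ends differed from those of limma. The difference in the summed share ran from 4.80 (medians in place of means) to 6.14 percentage points (without MOD calf 991), and as reads per 100 reads on all other genes it was 6.86. Leaving out calves 2120, 975 and 911 moved the difference in the share within the 7 genes from -0.43 to -0.88 points for COX2 and from 0.30 to 0.17 for ND4, moves smaller than the spread between calves. TMM without the 7 genes and reads per 100 reads on all other genes were chosen after seeing the data; they replace settings without every mitochondrially encoded gene, which need names for the other such genes. Over all genes, library size alone turned 556 higher and 300 lower calls (of 12738 tested) into 352 and 778 (of 12748). Without a fold change threshold 932 were higher and 858 lower. In the count tests, 618 (edgeR exact), 561 (quasi-likelihood) and 655 (DESeq2) of 12738 genes were called higher. Settings for the planned gene lists were not run. No paired analysis was possible because the labels do not tie calves to blocks and no calf number occurs in both diets.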
